A study of Mus musculus with 28 samples.

Results

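The forkhead, or Fox, family was examined for acetylation of histone H3 at lysine 27 (H3K27ac), which marks promoters and enhancers in use, in mouse cranial neural crest cells. The 43 members were taken by gene name from the annotation of GRCm38, out of 21887 protein-coding genes on the autosomes and the X and Y chromosomes, and the rule uses no measured value, although the family was picked with earlier results of these data known. Cranial neural crest cells leave the dorsal neural tube and give rise to most of the skeleton and connective tissue of the face. The study profiled them by chromatin immunoprecipitation sequencing in 28 libraries, and 4 of these enter here. They come from wild-type embryos at E10.5 and the H3K27ac antibody, with 1 library for each of the labels FNP, Mx, Md and PA2. Per the labels, the crest cells were dissected, fixed and sorted by fluorescence. The strain and the reporter used for the sort are not given in the sources used here, and wild type is the only genotype in this pool.

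The reads of the 4 libraries were merged before intervals of enriched signal were called, so all values below come from 1 list without replicates. Neither a replicate error nor a test can be given, and no interval carries the name of a population. An interval from a few strongly acetylated cells cannot be told apart from one of many weakly acetylated cells. The list held 125826 intervals, with a median width of 271 bp. Each has a score set by the authors' peak caller, and by its convention a score is 10 times −log10 of the interval's q-value. Scores began at 31, with a median of 111 and quartiles of 75 and 253. Scores are used here to describe and rank intervals within this list.

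Forkhead proteins are transcription factors that share a winged-helix DNA-binding domain, and many of them bind sites close to GTAAACA. The FoxA proteins can open closed chromatin. FoxO proteins are kept out of the nucleus by Akt, and FoxF, FoxC, FoxD and FoxL1 genes of the facial and gut mesenchyme respond to Hedgehog signals. Foxc1 and Foxc2 are needed for the mesenchyme of the skull and eye, Foxd3 acts in early neural crest cells, and other members act in epithelia, endoderm, neurons, gonads or T cells.

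An interval within 1 kb of either annotated end of the gene was found for 34 of the 43 Fox genes (79.1%). Over all protein-coding genes this share was 65%. Such a gene is called marked below, and the 1 kb windows cover the whole of a gene shorter than about 2 kb. The 34 marked genes had 62 intervals at their ends, all distinct, with a median width of 713 bp. For each marked gene, the highest score of an interval at its ends ran from 66 at Foxd3 to 6302 at Foxm1, with a median of 1257 and quartiles of 379 and 3077. The same value over all 14235 marked protein-coding genes had a median of 2494 and quartiles of 704.5 and 4793.5. The Fox genes were therefore marked in a larger share than all genes, while their median score was lower.

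With intervals of a score of at least 100 only, 29 Fox genes were marked, beside 61.2% of all genes. The 5 that were lost, Foxd3, Foxe1, Foxi3, Foxn4 and Foxs1, had top scores between 66 and 84. In 11 of the 62 cases the interval also lay within 1 kb of an end of another protein-coding gene. Counting only intervals away from all such ends, 30 Fox genes (69.8%) remained marked, beside 51.6% of all genes. Foxh1, Foxj1, Foxj3 and Foxm1 dropped out by this count, since each shares its end intervals with a neighbour.

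**Figure D1:**
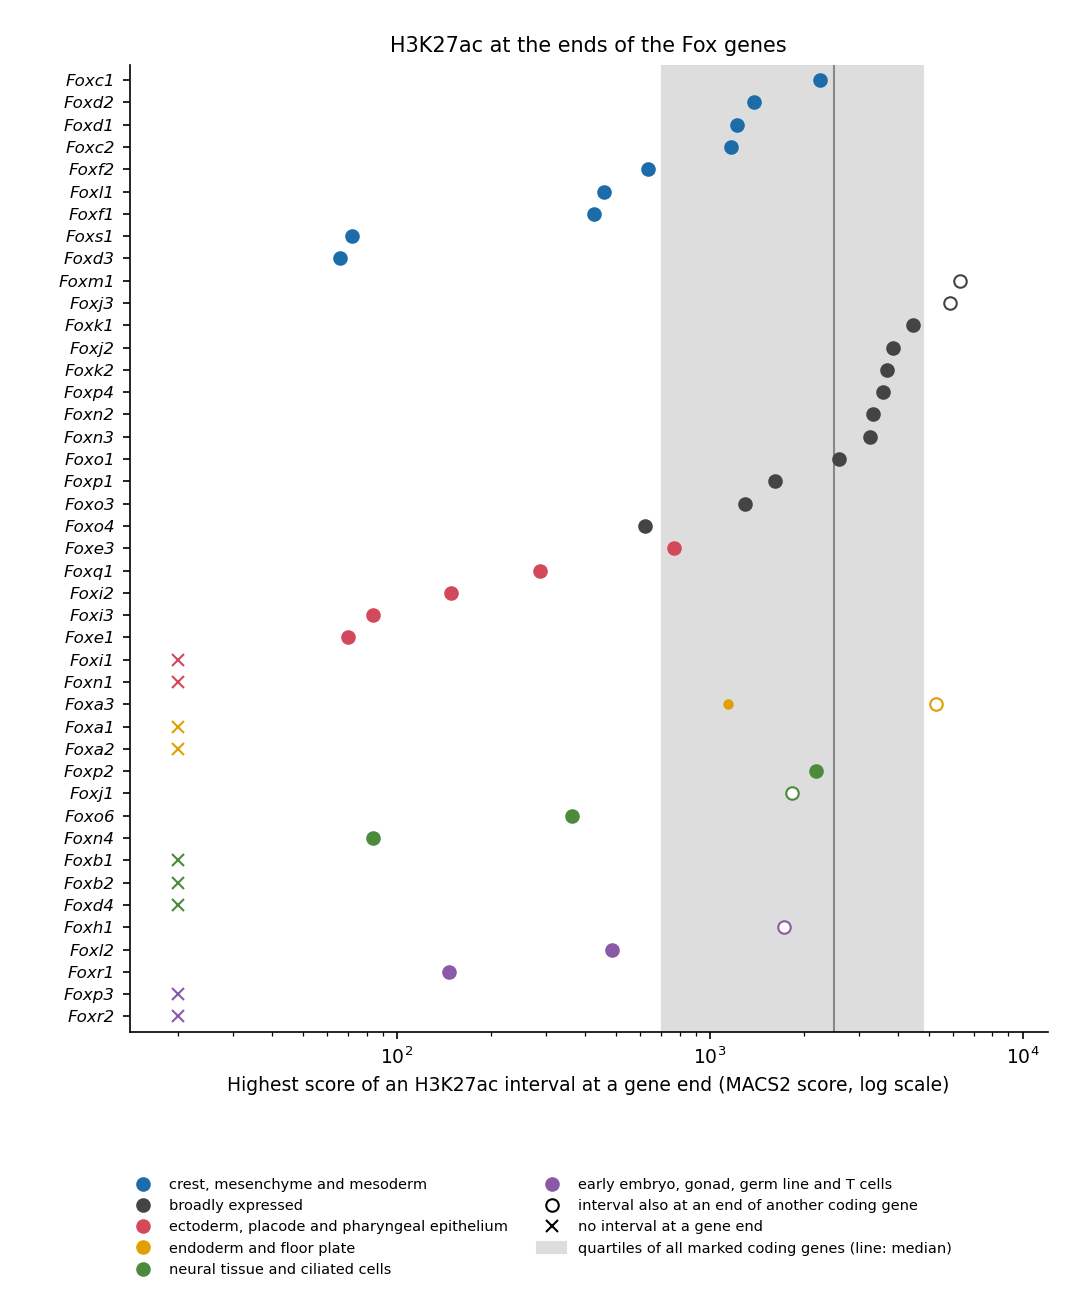
Highest score of an H3K27ac interval within 1 kb of an end of each Fox gene, on a log scale, with genes grouped by known site of action. Open circles mark an interval that also lies at an end of another protein-coding gene (for Foxa3 the smaller filled dot is its own interval), crosses mark the 9 genes without an interval at an end, and the grey band and line are the quartiles and median of all marked protein-coding genes. Of the 12 broadly expressed genes 9 lie right of the line, and all 9 crest and mesenchyme genes lie left of it.

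Inside the gene, away from both ends, 14 Fox genes (32.6%) had at least 1 interval, beside 41.2% of all genes. Gene length differs here, since 25 of the 43 Fox genes and 7925 of all 21887 genes were shorter than 10 kb. In that class 4% of Fox genes had one, against 7.71% of all. From 10 to 40 kb the shares were 50% and 42.5%, and from 40 to 100 kb 85.7% and 76.6%. At 300 kb or more they were 100% and 96.4%. No interval at an end or inside was found for 7 members (16.3%), beside 25.6% of all genes. These were Foxa1, Foxa2, Foxb1, Foxb2, Foxd4, Foxi1 and Foxp3. Foxn1 and Foxr2 had intervals inside the gene only, 2 of scores 89 and 90 in Foxn1 and 1 of score 75 in Foxr2.

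The limit of 1 kb separates genes that lie close together on this scale. Just inside it, the nearest interval lay 789 bp from an end of Foxr1, 916 bp from Foxe1 and 986 bp from Foxd3. Just outside it were Foxn1 at 1200 bp, Foxr2 at 1388 bp and Foxa1 at 1665 bp. For the other unmarked members the nearest interval lay between 4862 bp (Foxp3) and 82279 bp (Foxb2) from an end.

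The position of the acetylation relative to the start of transcription can be read on the promoter sequences. RefSeq promoter sequences of GRCm38.p6, 250 bases before to 50 bases after an annotated start, matched 28 of the 43 members with 33 starts. No sequence was matched for Foxb1, Foxc2, Foxe1, Foxf1, Foxh1, Foxj1, Foxk1, Foxl1, Foxm1, Foxn2, Foxo4, Foxo6, Foxp2, Foxq1 and Foxs1. Windows of 300 bases for 6 genes that carry different patterns are shown 5′ to 3′ along the gene, with capitals for the bases inside an H3K27ac interval.
Foxf2 (chr13:31625566-31625865, plus strand): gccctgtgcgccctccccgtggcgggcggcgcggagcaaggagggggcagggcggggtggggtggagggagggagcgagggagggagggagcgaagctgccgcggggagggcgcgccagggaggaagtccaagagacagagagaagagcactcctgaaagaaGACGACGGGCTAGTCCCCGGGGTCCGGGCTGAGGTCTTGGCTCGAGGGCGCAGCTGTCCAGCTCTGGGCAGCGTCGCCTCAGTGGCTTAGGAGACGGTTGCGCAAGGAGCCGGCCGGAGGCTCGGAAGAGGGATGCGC
Foxd2 (chr4:114908849-114909148, minus strand): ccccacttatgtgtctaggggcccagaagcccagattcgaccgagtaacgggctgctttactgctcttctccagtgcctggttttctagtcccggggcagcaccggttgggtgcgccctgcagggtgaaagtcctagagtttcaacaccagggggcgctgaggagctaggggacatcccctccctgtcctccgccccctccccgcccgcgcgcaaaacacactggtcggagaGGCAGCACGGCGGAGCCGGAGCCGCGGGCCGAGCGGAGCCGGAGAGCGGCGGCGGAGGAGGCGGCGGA
Foxi3 (chr6:70956356-70956655, plus strand): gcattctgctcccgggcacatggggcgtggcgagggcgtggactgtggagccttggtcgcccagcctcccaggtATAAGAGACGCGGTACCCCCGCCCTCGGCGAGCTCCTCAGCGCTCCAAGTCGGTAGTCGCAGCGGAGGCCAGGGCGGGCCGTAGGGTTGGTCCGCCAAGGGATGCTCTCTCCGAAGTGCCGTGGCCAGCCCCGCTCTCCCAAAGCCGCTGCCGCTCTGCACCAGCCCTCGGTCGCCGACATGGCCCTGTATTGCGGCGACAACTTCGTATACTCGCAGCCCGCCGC
Foxk2 (chr11:121259737-121260036, plus strand): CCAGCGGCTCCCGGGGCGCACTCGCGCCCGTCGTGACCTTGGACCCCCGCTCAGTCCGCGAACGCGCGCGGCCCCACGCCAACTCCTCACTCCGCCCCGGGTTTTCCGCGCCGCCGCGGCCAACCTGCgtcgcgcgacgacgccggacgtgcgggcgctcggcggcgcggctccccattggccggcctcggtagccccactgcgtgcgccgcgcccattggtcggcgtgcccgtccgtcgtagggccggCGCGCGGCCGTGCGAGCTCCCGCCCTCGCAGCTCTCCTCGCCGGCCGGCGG
Foxc1 (chr13:31806396-31806695, plus strand): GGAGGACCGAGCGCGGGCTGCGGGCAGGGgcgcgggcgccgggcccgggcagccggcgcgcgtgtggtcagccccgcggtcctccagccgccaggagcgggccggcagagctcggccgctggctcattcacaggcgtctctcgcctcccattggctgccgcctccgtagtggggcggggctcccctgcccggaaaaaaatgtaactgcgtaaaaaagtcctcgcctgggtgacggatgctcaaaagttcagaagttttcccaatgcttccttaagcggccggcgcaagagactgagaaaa
Foxd1 (chr13:98353995-98354294, plus strand): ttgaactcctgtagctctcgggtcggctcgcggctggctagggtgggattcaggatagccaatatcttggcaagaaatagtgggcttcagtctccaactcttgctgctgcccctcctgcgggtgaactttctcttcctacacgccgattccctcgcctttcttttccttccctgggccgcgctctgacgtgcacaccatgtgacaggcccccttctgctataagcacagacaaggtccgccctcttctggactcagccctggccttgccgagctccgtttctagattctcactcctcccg

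In Foxf2 the capitals cover 138 of the 300 bases and run across the start into the gene, from 88 bases before it. In Foxd2 they cover the last 68 bases, so the interval of score 1385 begins just before the start and extends over the gene. In Foxi3 they cover 226 bases, although that interval scored only 84. The Foxk2 window has 2 stretches inside intervals, 179 bases in all, and the gap between them ends just before the start. In Foxc1 only the first 29 bases lie inside an interval, at the 3′ edge of a 229 bp interval of score 235. The next Foxc1 interval, of score 2245, begins 225 bases past the start, so the start lay in a gap between both. The Foxd1 window holds no capitals, because its interval of score 1219 begins 56 bases past the start. These windows thus show called intervals on either or both sides of the start and not always over it.

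Of the 33 Fox starts, 19 (57.6%) had an interval within 1 kb, beside 65% of 21263 starts of all protein-coding genes in the table. This share rests on other members than the share at gene ends: 20 of the 28 genes with a start in the table were marked at an end, and 14 of the 15 without one. The unmarked Foxa2 and Foxp3 also enter with 5 starts. An interval lay over the start base in 13 (39.4%, against 40.4% of all starts). Intervals on both sides but not over the start were found for Foxc1 and Foxo1, which is 6.06% of the Fox starts against 13.9% of all. Foxd1 and Foxi2 had an interval downstream only, and Foxn4 and Foxa3 upstream only. The Foxd3 interval lay outside this window, 1077 bp past the start. The window at the Foxd3 start, shown to compare with its relatives Foxd1 and Foxd2, has no base inside an interval, as at Foxd1.
Foxd3 (chr4:99656049-99656348, plus strand): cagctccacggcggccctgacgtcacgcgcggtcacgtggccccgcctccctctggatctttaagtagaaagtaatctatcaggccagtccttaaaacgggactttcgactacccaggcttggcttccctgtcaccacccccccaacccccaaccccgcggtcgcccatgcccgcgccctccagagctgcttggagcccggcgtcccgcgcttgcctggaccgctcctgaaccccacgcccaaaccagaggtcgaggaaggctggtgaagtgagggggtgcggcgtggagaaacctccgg

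Fox promoters were rich in CG dinucleotides. Their median CG count per 300 bases was 22 and their median GC content 62.7%, against 13 and 56.3% over all promoters. Among the 19 Fox starts with an interval within 1 kb the medians were 27 and 69%, and among the 14 without one 11 and 56.5%. The same contrast was present in all genes, with medians of 21 and 61.3% against 3 and 46.7%. Unmarked Fox starts therefore had a higher median count than unmarked starts in general. The Foxd3 window held 25 and the window at Foxa1 26, close to the 27 of Foxf2.

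The motif GTAAACA, searched on both strands, occurred in 1 of the 33 Fox promoters (3.03%) and in 639 of the 21263 (3.01%). The match was in Foxa1, 141 bases before the start, and is in capitals in the window below, which holds no base inside an interval. TATAAA was found in 3 Fox promoters (9.09%, against 12.6%) and CCAAT in 15 (45.5%, against 38.2%), both strands searched. The 3 motifs were counted separately, and these matches are descriptions of the letters only.
Foxa1 (chr12:57546062-57546361, minus strand): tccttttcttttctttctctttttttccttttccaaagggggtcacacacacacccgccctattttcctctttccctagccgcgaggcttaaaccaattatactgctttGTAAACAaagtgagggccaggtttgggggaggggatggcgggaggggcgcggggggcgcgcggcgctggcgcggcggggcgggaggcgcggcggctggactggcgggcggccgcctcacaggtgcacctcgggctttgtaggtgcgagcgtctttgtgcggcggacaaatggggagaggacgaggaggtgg

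**Figure D2:**
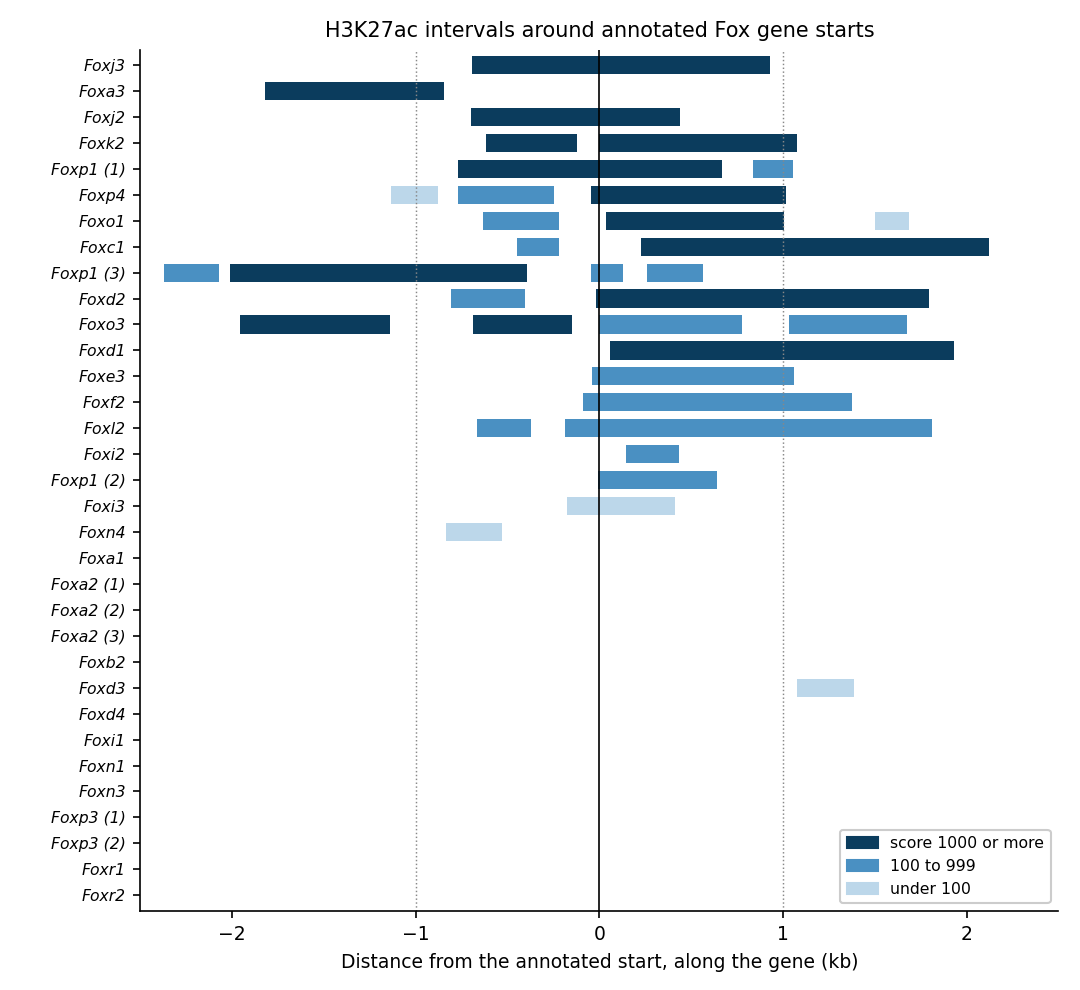
H3K27ac intervals around the 33 annotated starts of 28 Fox genes, in kb along the direction of the gene and cropped at 2.5 kb, with darker bars for higher scores and dotted lines at 1 kb. Numbers in brackets tell the starts of 1 gene apart. Of the starts, 19 have a bar between the dotted lines and 13 have one across 0. Foxc1 and Foxo1 have bars on both sides of 0 and none across it.

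The 9 members known from neural crest, mesenchyme or mesoderm were all marked, beside 65% of all genes. Each was marked by an interval away from other coding gene ends, beside 51.6% of all genes. Top scores of the 9 ran from 66 to 2245, with a median of 633. In the order of these scores they were Foxc1 (2245), Foxd2 (1385), Foxd1 (1219), Foxc2 (1171), Foxf2 (633), Foxl1 (459), Foxf1 (427), Foxs1 (72) and Foxd3 (66). No error can be given to any step of this order. All 9 lay below the median of marked protein-coding genes: 46.8% of those genes scored lower than Foxc1, 32.3% lower than Foxc2 and 1.64% lower than Foxd3. The flanks of these genes, 1 to 100 kb outside either end, held a median of 19 intervals (range 5 to 29), beside 12 over all protein-coding genes.

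Of these short genes, Foxd1, Foxd2 and Foxc2 were covered over most of their length. So were Foxl2 (71.9%), Foxe3 (65.2%) and Foxq1 (54.3%), short Fox genes of other groups. Intervals covered 76.3% of Foxd1, a gene of kidney stroma and facial mesenchyme (chr13:98354245-98356705), by a single interval of 1878 bp. They covered 68.6% of Foxd2, also expressed in facial mesenchyme (chr4:114906280-114908898), and 66.1% of Foxc2. Foxc1 was covered over 47.6%, Foxl1 over 40.7% and Foxf2 over 34.2%. Foxf1 was covered over 18.9%, Foxd3 over 13.1% and Foxs1 over 2.82%. Among the 19 marked Fox genes shorter than 10 kb the median covered share was 22.1%, beside 14.1% of the marked protein-coding genes of that class. Lengths within the class were not matched. In this length class 19 of 25 Fox genes (76%) were marked, against 47.4% of all 7925 genes. From 10 to 40 kb it was 5 of 8 (62.5%), against 72.1%.

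Foxd3, an early regulator of the crest lineage, stood at the other end of the group. Its only interval at an end (chr4:99657376-99657685) was 310 bp wide with a score of 66, and it lay in the interior of a gene of 2373 bp. Its flanks held 9 intervals, of which 1 lay within 50 kb. Foxs1, known from mural cells of vessels and sensory neurons, had 1 interval of 162 bp with a score of 72 over its higher-coordinate end, but 17 intervals in its flanks. The highest of these away from gene ends scored 1301 and lay 5.65 kb beyond the lower-coordinate end. Foxd1 also had a flanking interval above its own score. It scored 2521, lay 33.8 kb beyond the higher-coordinate end and was in no annotated gene (chr13:98390483-98391976).

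Mesenchymal and epithelial Fox genes are linked in 2 sets of 3, on chromosomes 8 and 13. Foxf1, Foxc2 and Foxl1 span 46.3 kb of chromosome 8 (chr8:121084386-121130644), and Foxq1, Foxf2 and Foxc1 span 252 kb of chromosome 13 (chr13:31558170-31810635). Foxf1 and Foxf2 act in gut, lung and palate mesenchyme, Foxl1 in gut mesenchyme and Foxq1 in epithelia. All 6 genes were marked, and none of their end intervals lay at an end of another protein-coding gene. With 100 kb on either side, the first locus held 31 intervals and the second 23. Per 10 kb these are 1.26 and 0.508. The median scores were 124 and 129, and 20 and 14 intervals scored at least 100.

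In the chromosome 8 locus, Foxc2 carried the highest-scored interval of the 3 Fox genes. It scored 1171 and covered 1613 bp from 38 bp inside the lower-coordinate end (chr8:121116209-121117821), and a second of 187 bp scored 67. The Foxl1 interval (chr8:121127844-121129047) was 1204 bp wide and scored 459. Foxf1 had 2 intervals of nearly equal score. One of 1272 bp (chr8:121082726-121083997) scored 427 and also lies at the end of Fendrr, a long non-coding RNA gene next to Foxf1. The other, of 712 bp (chr8:121084404-121085115), scored 404. Both Foxf1 intervals lie around the end that faces Fendrr, and the other end had none.

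The intervals outside the Fox genes of this locus were unevenly placed. The highest score of the locus, 5316, belonged to an interval at an end of Mthfsd, the gene between Foxf1 and Foxc2 (chr8:121107553-121108377). A second interval at that end scored 575. In the 100 kb before Foxf1 there were 5 intervals, the strongest with a score of 621 inside Fendrr (chr8:121063824-121064614), 19.8 kb from Foxf1. In the 100 kb after Foxl1 there were 19, with a top score of 412 (chr8:121180744-121182128). That is 0.5 against 1.9 intervals per 10 kb. Between the outer ends of Foxf1 and Foxl1, the longest stretch without an interval measured 22.4 kb, from Foxf1 to the end of Mthfsd.

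In the chromosome 13 locus, Foxc1 carried the intervals of highest and of third-highest score. They were the 1898 bp interval over the gene (chr13:31806871-31808768, score 2245) and a 1062 bp interval just beyond its higher-coordinate end (chr13:31810914-31811975, score 609). The Foxf2 interval over the start (chr13:31625728-31627190) was 1463 bp wide and scored 633. Inside Foxf2 lay another pair, of scores 130 and 81. Foxq1 had an interval of 1076 bp with a score of 286 (chr13:31558855-31559930) and one of 448 bp with a score of 217. No interval of this locus lay at an end of another protein-coding gene. Gmds, the gene beyond Foxc1, reaches out of the window.

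Between the Fox genes of chromosome 13 intervals were few. The 64.8 kb between Foxq1 and Foxf2 held 2, with a top score of 129. The 175 kb between Foxf2 and Foxc1 held 6, of which the strongest scored 235 and is the one just before Foxc1. A stretch of 118 kb in this gap had no interval (chr13:31642599-31760283). Before Foxq1 there were 2 intervals in 100 kb, with a top score of 89, and after Foxc1 there were 7. Both loci thus had their strongest Fox interval at a FoxC gene, and the chromosome 8 locus had more intervals per length. Members of a locus share flanking intervals and are not independent of each other.

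**Figure D3:**
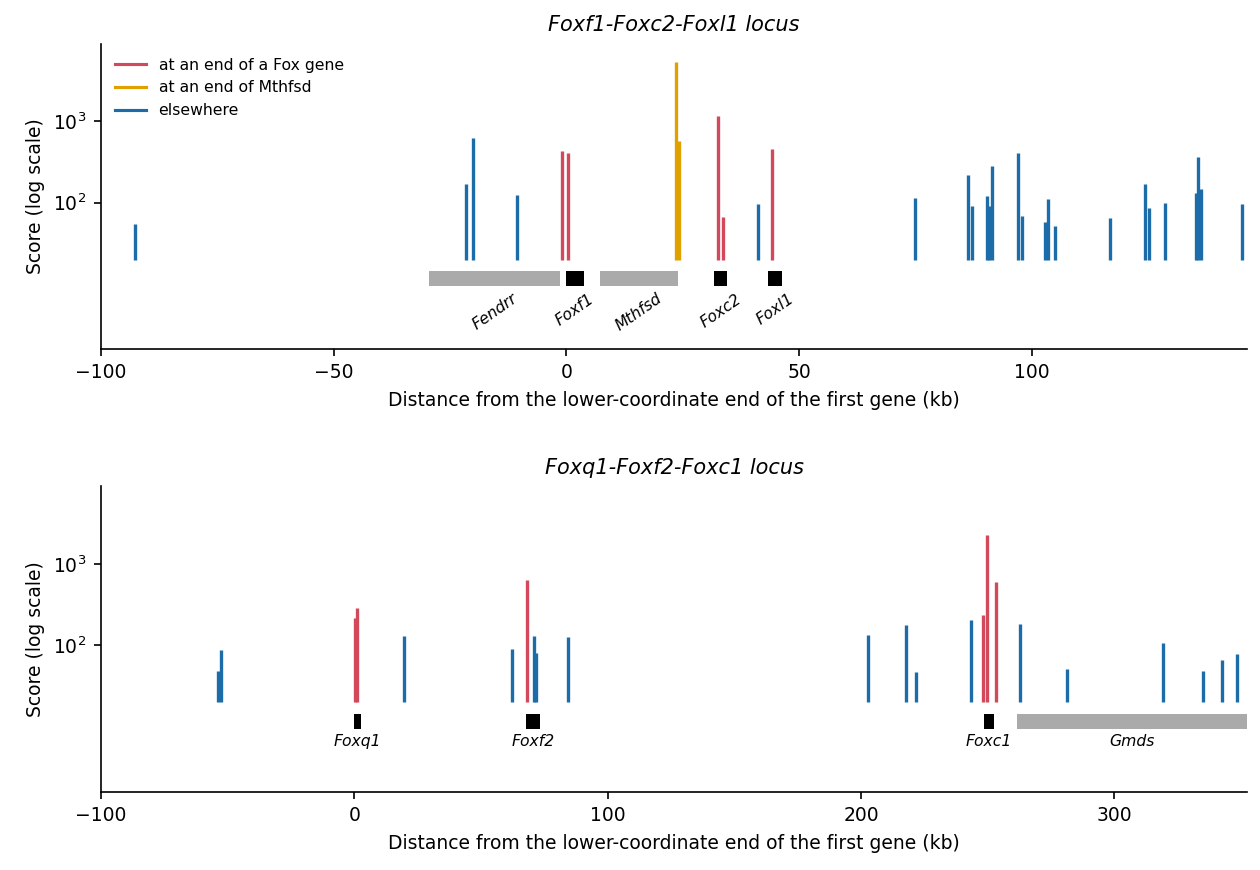
H3K27ac intervals over both linked Fox loci, each line an interval at its distance in kb from the lower-coordinate end of the first gene, with its score as height on a log scale. Black boxes are Fox genes and grey boxes Mthfsd, Gmds and Fendrr. The tallest line of the upper panel, 5316, is at Mthfsd and the tallest of the lower panel, 2245, at Foxc1. In the upper panel 19 lines follow Foxl1, while the lower panel has a stretch of 118 kb without any.

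The 12 broadly expressed members were all marked, beside 65% of all genes. Several of the 12 act in the cell cycle, metabolism or stress response of many cell types. Away from other coding gene ends 10 of the 12 were marked, beside 51.6% of all genes. Top scores of the 12 ran from 622 to 6302 with a median of 3452.5. The lowest of this group, Foxo4 at 622, nearly equalled the median of the crest and mesenchyme group. The 10 highest scores in the family belonged to 9 genes of this group and to Foxa3.

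Foxm1, which drives entry into mitosis, had the highest score, 6302, in an interval of 1721 bp (chr6:128361737-128363457) shared with the end of Rhno1. Foxj3 followed with 5833 (chr4:119538969-119540592), shared with Frg2f1. The Foxk1 interval over the lower-coordinate end scored 4446 (chr5:142401479-142402455) and the Foxk2 interval 3695 (chr11:121259986-121261065), and these FoxK proteins act on metabolism and autophagy. Foxj2 had 3841 in a single interval across its start (chr6:122819485-122820621). Foxp4 had 3574 (chr17:47923613-47924676), Foxn2 3331 (chr17:88440736-88441896) and Foxn3, a repressor, 3238 (chr12:99563194-99563912). Among the FoxO genes, which Akt controls, Foxo1 had 2595 (chr3:52268373-52269340), Foxo3 1295 and Foxo4 622. Foxp1 had 1614 at its higher-coordinate end.

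The limit of 1 kb bears on the place of Foxo3 in this order. An interval with a score of 5109 lay 1.14 kb beyond its higher-coordinate end (chr10:42277834-42278654), on the upstream side of the annotated start, and counts as flanking. No annotated gene end lay within 1 kb of it. Foxj2 had a flanking interval of score 6598 at 7.87 kb before its start (chr6:122811135-122812310), above the 3841 at its own start.

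Intervals lay inside 9 of the 12 broadly expressed genes, and gene length bears on this number. The 10 Fox genes of 40 kb or more were all marked, beside 78.2% of the genes between 40 and 100 kb and 78.8% of those of at least 300 kb. The 7 of 40 to 100 kb had a median of 10 intervals inside, beside 2 over the 3578 genes of that class (quartiles 1 and 5). The 3 of at least 300 kb had a median of 36, beside 21 over 557 genes (quartiles 8 and 38). The class from 100 to 300 kb holds no Fox gene.

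Foxp1, which acts in heart, neurons and lymphocytes, held 66 intervals in 597 kb, 38 of them with a score of at least 100, and 94.1% of genes in its class had fewer. Its intervals were spread over the whole gene, with 16, 23, 14 and 13 in 4 equal stretches from the lower-coordinate end. The strongest, of score 3636 (chr6:99027631-99029066), lay over an annotated internal start. It scored above the intervals at the outer end of Foxp1. Foxp2, known from brain and speech circuits, held 36 intervals, with 3, 4, 14 and 15 in the same stretches. Its strongest inside scored 637, against 2191 at its lower-coordinate end. Foxn3 held 34, the strongest with a score of 3461 at an end of another gene, Gm51999.

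Foxo3 held 18 intervals inside, and 99.6% of genes of 40 to 100 kb had fewer. A neighbouring pair scored 1422 and 1015 (chr10:42203726-42204586 and chr10:42202963-42203393), and the first of 4 equal stretches held 8 of the 18. Foxo1 and Foxp4 held 12 each and Foxk1 10, of which the strongest scored 1516 (chr5:142440869-142441527). Foxj3 and Foxn2 held 1 each and Foxk2 none. Genes of similar length and similar end score thus differed widely inside, as Foxk1 and Foxk2 show with 10 and 0.

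**Figure D4:**
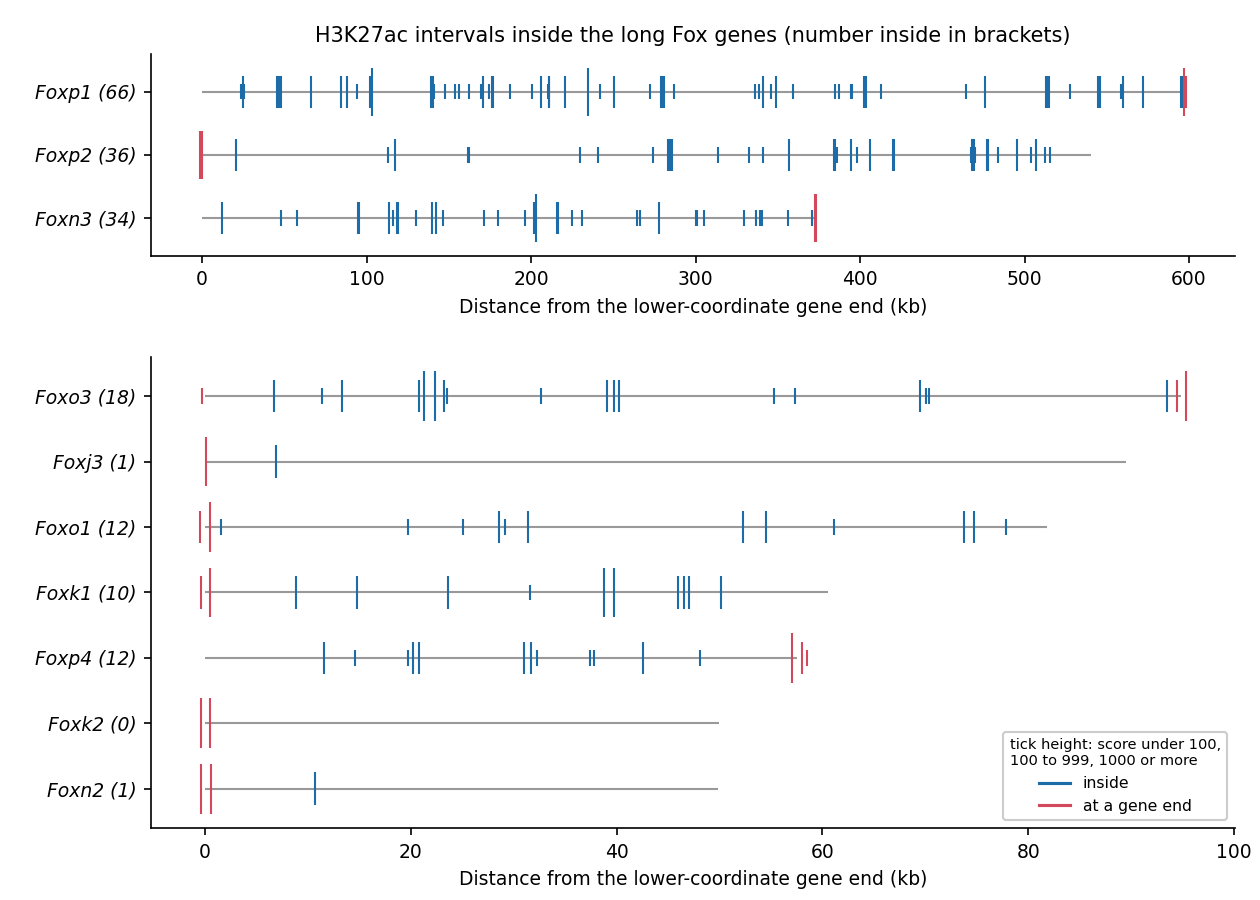
H3K27ac intervals along the 10 Fox genes of 40 kb or more, in kb from the lower-coordinate end, with the number inside the gene in brackets and taller ticks for higher scores. Red ticks are intervals at a gene end and blue ticks those inside. Foxp1 has blue ticks along its whole length, Foxp2 mainly in the later part, and Foxk2 none.

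Of the 7 members known from ectoderm, placodes and pharyngeal epithelium, 5 were marked (71.4%, beside 65% of all genes). With a score of at least 100 there were 3, beside 61.2% of all genes. Top scores of the 5 ran from 70 to 771, with a median of 149, and the flanks of the 7 held a median of 8 intervals. Foxe3, a lens gene, had the highest, 771, in an interval of 1100 bp over its start (chr4:114925008-114926107). Foxe3 lies next to Foxd2 and shares most of its flank with it. Foxq1 followed with 286. Foxi2 and Foxi3, genes of the cranial ectoderm that forms placodes, had 149 and 84, and Foxi1, a gene of the inner ear, was unmarked with 7 flanking intervals.

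Foxe1, a gene of thyroid and palate epithelium, had an end interval of 164 bp with a score of 70 and 12 intervals in its flanks. The strongest of the 10 away from coding gene ends scored 7954 and lay 43.1 kb away inside Trmo, another gene. Foxn1, the regulator of thymus epithelium, had 18 flanking intervals but none at an end.

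Of the 3 FoxA genes, which act in endoderm and floor plate, only Foxa3 was marked (33.3%, beside 65% of all genes). Its interval of score 5266 (chr7:19024388-19025363), with its near edge at position -849 from the start, lay also at an end of Sympk, a gene of RNA processing. Its own interval, at the other end, scored 1146. Of the 23 intervals in the Foxa3 flanks, 6 were away from other coding gene ends. Foxa1 (chr12:57540628-57548029) and Foxa2 (chr2:148042877-148046969) had no interval at an end or inside and 2 in the flanks, the fewest of the family. For Foxa1 the nearest lay 1665 bp away and for Foxa2 75577 bp.

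Of the 7 members known from neural tissue and ciliated cells, 4 were marked (57.1%, beside 65% of all genes). Foxp2 had 2191, Foxj1, the regulator of motile cilia, 1828, Foxo6 363 and Foxn4, a gene of retina and spinal interneurons, 84. The Foxj1 interval (chr11:116335549-116336165) lay at an end of Rnf157 as well. Foxb1, Foxb2 and Foxd4, genes of the early brain and neural ectoderm, were unmarked, with 11, 4 and 14 flanking intervals. All 4 around Foxb2 lay at ends of other protein-coding genes. Foxn4 had 23 flanking intervals, all away from coding gene ends.

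Of the 5 members known from early embryo, gonads, germ line or T cells, 3 were marked (60%, beside 65% of all genes). Foxh1, the partner of Smad proteins in Nodal signalling, had 1730, in an interval at an end of Ppp1r16a (chr15:76671647-76672603). Foxl2, known from ovary and eyelid, had 487, in the widest end interval of the family, 2001 bp (chr9:98955418-98957418), which covered 71.9% of the gene. That interval scored below the broadly expressed genes, although it was wider than all of theirs. Foxr1 had 147. Foxp3, the regulator of suppressive T cells, and Foxr2 were unmarked. Both lie on the X chromosome with Foxo4, where 46.5% of all protein-coding genes were marked against 66.7% on autosomes.

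The flanks give a view that does not depend on gene length. Each of the 43 genes had at least 1 interval there, while 10.4% of all protein-coding genes had none. The median was 14 with quartiles of 9 and 20, beside 12 with quartiles of 5 and 18. Away from coding gene ends the medians were 10 and 7. Foxp4 had the most, 46, of which 42 were away from coding gene ends and the strongest of those scored 1456 inside Mdfi. It was followed by Foxl1 (29), Foxr1 (28), Foxc2 and Foxk1 (24 each) and Foxa3 and Foxn4 (23 each). The fewest were at Foxa1 and Foxa2 (2 each), Foxb2 (4), Foxf2 and Foxr2 (5 each) and Foxi2 and Foxi3 (6 each).

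The flanking count and the end score did not order the genes alike. Foxf2 was marked with 633 and had 5 flanking intervals, whereas Foxr1 had 147 and 28, and Foxn4 84 and 23. Foxk2 had 3695 at its end, with 15 flanking intervals of which 1 was away from coding gene ends. Foxc1 had the highest end score of the crest group and 10 flanking intervals, and Foxc2 had 24.

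**Figure D5:**
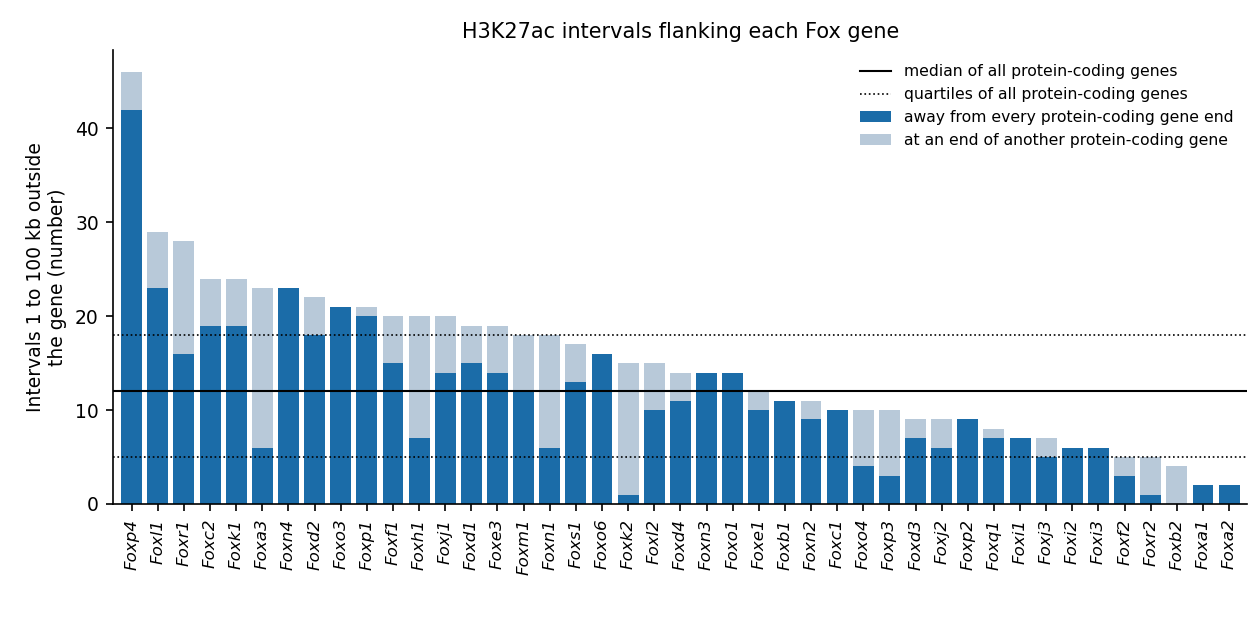
Number of H3K27ac intervals 1 to 100 kb outside each Fox gene, split into those at no protein-coding gene end (dark) and those at an end of another protein-coding gene (light), with the median and quartiles of all protein-coding genes as lines. Foxp4 stands highest with 46, and Foxa1 and Foxa2 lowest with 2. All bars are above 0.

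By subfamily, every member was marked in FoxC (2), FoxE (2), FoxF (2), FoxJ (3), FoxK (2), FoxL (2) and FoxO (4) and in the single genes FoxH, FoxM, FoxQ and FoxS. In FoxD, FoxN and FoxP 3 of 4 were marked, in FoxI 2 of 3, in FoxR 1 of 2, in FoxA 1 of 3 and in FoxB none of 2. Score ranges were narrow in FoxK (3695 to 4446), FoxL (459 to 487) and FoxF (427 to 633). They were wide in FoxD, from 66 at Foxd3 to 1385 at Foxd2, and in FoxN, from 84 at Foxn4 to 3331 at Foxn2. Foxd4, the other FoxD gene, had no interval at an end or inside. Each subfamily has too few genes for these ranges to be more than a description.

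Genes of the Hedgehog pathway, which acts on several Fox genes, were mostly marked, 13 of 15 (86.7%) beside 65% of all genes, with top scores from 347 to 8907. Of the ligand genes, Shh and Ihh were not marked, while Dhh had 2150. The receptor genes Ptch1 and Smo had 882 and 8907, and Gli1, Gli2 and Gli3, the transcription factors of the pathway, 658, 1920 and 4860. Of 9 Pax genes 3 were marked (33.3%) and of 17 T-box genes 12 (70.6%), beside 65% of all genes and 79.1% of the Fox genes. The median top scores were 339 for Pax, 458.5 for T-box and 1257 for Fox genes. These families were not compared by a test.

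The labelled cell type was checked on marker lists. All 9 markers of crest mesenchyme were marked, with a median top score of 1380. Twist1 had 3067 and Alx4 2683, but Prrx1 had 87 and Pdgfra 137, and the highest was Prrx2 at 4697. Of the endothelial markers 6 of 7 were marked (85.7%, 49 to 435) and of the epithelial ones 4 of 7 (57.1%, 207 to 1367). Of neurons it was 3 of 5 (60%, 110 to 4646), of blood 2 of 5 (40%, 1480 and 1492) and of endoderm 0 of 4. Over all protein-coding genes 65% were marked. The epithelial and neuronal shares lie near this value and the endothelial one above it, so these short lists do not measure how pure the sorted cells were. Among the epithelial markers Cdh1, Esrp1 and Trp63 had no interval at an end, while Epcam had 439 and Grhl2 1367. Among the blood markers Gata1, Hba-x and Hbb-y had none, while Klf1 (1480) and Spi1 (1492) scored above the crest mesenchyme median. The part of such cells in the intervals of Foxe3, Foxi3, Foxq1 and Foxe1 was not tested.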

How the data were processed

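H3K27ac was measured in 4 wild-type libraries of E10.5 embryos. The text deposited with the list says that the authors merged their reads and ran MACS2 2.1.3.3 at a q-value of 0.001. No model was built, reads were extended to 141 bp with the shift at 0, duplicates stayed in, and no control is named. The submitters' processing notes name bcl2fastq 2.17, Bowtie 1.1.1 and the assembly GRCm38, also called mm10. The deposited list gives each interval a position and a score. The effect of duplicates and of a control on the intervals was not tested. Sequencing depth is unknown. The other 24 libraries were not analysed here.

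Gene ends came from a RefSeq table of GRCm38.p6, which gives no strand, and starts and promoter sequences from a RefSeq table of the same build. Intervals were assigned with Python 3.11.15 and NumPy 2.4.6 by an overlap of at least 1 bp, as at an end (within 1 kb), inside, or flanking (1 to 100 kb outside), and the assignment was tested on simulated data, where 200 of 200 intervals were recovered. All 43 Fox genes are accounted for. Given in full are the linked genes, the 10 highest end scores, the 6 highest and 6 lowest flanking counts (with ties), the genes without an interval and those next to the limit. Other genes are named where an interval of a Fox gene lies at or in them, and a few from the Hedgehog and marker lists were named after their values were seen. The members, lists, groups by known site of action and rules were chosen with earlier results of these data known. A second pathway list is not reported here. Alternatives were another score minimum, overlap rule, window and flank.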

Additional observations from a re-analysis of the deposited data

How the results depend on the processing

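No paired analysis was possible because the list pools 4 libraries and has no columns for samples, and for the same reason no library could be left out. Depth is unknown, so an absent interval shows only that none passed the caller's limit. An interval lay over an end base itself for 19 of the 43 Fox genes, beside 32.6% of all 21887 genes. Of the 28 members with a start in the promoter table, 17 had an interval within 1 kb of it. The share of all genes was not counted at that setting. Between 29 and 37 Fox genes were marked under a score minimum of 100, the higher-scored 50% of intervals, interval midpoints, or windows of 0.5 or 2.5 kb. Over all genes the marked share at these settings ran from 60.5% to 70.8%. The window of 0.5 kb lost Foxa3, Foxd3, Foxe1 and Foxr1, and that of 2.5 kb added Foxa1, Foxn1 and Foxr2. With the end base alone 27 of 43 genes, not 14, had an interval inside, since intervals in the end windows then count there. Over all genes this share was 58.7%. With the window of 0.5 kb it was 20 of 43, beside 44.7% of all genes. The Fox share inside was thus below that of all genes at 1 kb, but above it at both of these settings. Genes with neither numbered 14, not 7, both at scores of at least 100 and with the higher-scored 50%. The share of all genes with neither was not counted at these settings. The Fox share of 16.3% could therefore be set beside the 25.6% of all genes for the full list only. Whether it stays lower at these settings is not known.

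The median flanking count of 14 became 9 at scores of at least 100 and 8 with the higher-scored 50% (7 over all genes in both), 6 at 50 kb and 31 at 200 kb (6 and 25 over all genes), and 9 away from all annotated gene ends (7 over all genes). Fox genes without a flanking interval numbered 2 at 50 kb, Foxa2 and Foxb2, beside 15.4% of all genes. Away from coding ends there was 1 such Fox gene, beside 12.6% of all genes. Away from all annotated ends there was also 1, beside 14% of all genes. The Foxf1-Foxc2-Foxl1 locus held 20 intervals above the score minimum, 19 among the higher-scored 50%, 17 at 50 kb and 74 at 200 kb. The Foxq1-Foxf2-Foxc1 locus held 14, 13, 17 and 44 under the same settings, so both loci held 17 at 50 kb. Smaller windows and score limits leave fewer intervals by construction. Counting only intervals away from other coding gene ends (30 marked) and only 1 gene per linked run (38 genes, median 14) were chosen after seeing the data.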
